A study of Homo sapiens with 4 samples.

Results

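The genes described here are 8 genes that make or assist antibody chains. They were chosen by name: the constant genes of the μ, δ and κ chains (IGHM, IGHD, IGKC), the surrogate and λ-like light chain genes IGLL1 and IGLL5, the surrogate-chain relative VPREB3, the joining chain gene JCHAIN and the folding helper MZB1. Of these, 7 had a row among the 51714 Ensembl gene identifiers of the deposited tables, and IGLL5 was not analysed here. RNA came from Raji, an established human B cell line from an Epstein-Barr-virus-positive Burkitt lymphoma. All cells had received a vector that encodes RPB1, the catalytic subunit of RNA polymerase II, with an HA tag and resistance to α-amanitin, and were selected in G418 and then for 10 days in α-amanitin, a toxin that blocks the endogenous polymerase. The encoded subunit was wild-type (WT) in 2 libraries and R1810A in the other 2. R1810A has alanine in place of a methylatable arginine of the C-terminal domain. The study asked whether loss of that methylation site alters gene expression. The cells were polyclonal batches, and no label states that the 2 libraries of a kind had separate cultures, so the p-values reflect only the spread among the libraries at hand, and that spread may be technical.

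A B cell joins variable, diversity and joining segments into one heavy chain gene and one light chain gene, each read together with a constant gene. The μ and δ constant genes are read from one long transcript whose RNA processing decides which chain is made, and for μ also whether the chain is anchored in the membrane or secreted. A mature B cell normally keeps one light chain type, κ or λ. Precursor B cells instead use a surrogate light chain, made of λ5 (IGLL1) and VpreB (VPREB1). Secreted IgM is assembled into polymers with the joining chain, and antibody-secreting cells enlarge their endoplasmic reticulum to fold it.

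Summed gene counts ran from 2081636 to 2991959 per library. All 7 B cell markers used here (MS4A1, CD79A, CD79B, CD22, CD37, PAX5, BLK) had over 10 reads in a library, and their summed level was 4953 and 3837 CPM in WT and 4291 and 4986 CPM in R1810A, so the groups overlapped. CPM here means counts per 1000000 reads, with library sizes scaled by the TMM method of edgeR. The 5 precursor B cell markers (DNTT, RAG1, RAG2, VPREB1, CD34) had 2 to 10 reads in sum per library and the 5 T cell markers 0 to 4. Of the plasma cell markers, SDC1 had 0 reads in every library and PRDM1 between 3 and 11. Of the 4 myeloid markers only CSF1R, a cytokine receptor, had more than 1 read in a library.

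IGHM (ENSG00000211899, chromosome 14), which encodes the constant region of the μ heavy chain, was the most abundant of the 7 genes. It had 17814 and 20491 reads with the WT subunit and 13550 and 12569 with R1810A. Per length, its deposited RPKM (reads per 1000 bases of gene and 1000000 total reads) was 1745 and 1521 in WT and 1353 and 1222 in R1810A. By mean RPKM over the 4 libraries it held rank 7 among all identifiers. The count adds membrane and secreted forms of μ, since the tables give one value per gene. IGHM held between 92.6% and 94.0% of the reads at all immunoglobulin constant, variable, diversity and joining genes.

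IGHD (ENSG00000211898), the δ constant gene that lies beside IGHM, had 30 and 64 reads with the WT subunit and 22 and 44 with R1810A. Its RPKM of 4.07 and 6.58 in WT overlapped with 3.04 and 5.92 in R1810A. Within a library, IGHM lay between 206-fold and 445-fold above IGHD in RPKM. Expressed as a percentage of IGHM, the RPKM of IGHD was 0.233 and 0.433 in WT and 0.225 and 0.485 in R1810A. The 2 libraries of a group thus differed more from each other than the groups did (exact permutation test on the log2 ratio, two-sided, p = 1.0, where 2 against 2 libraries allow no p below 0.33). With these counts the exact Poisson interval of IGHD at 95% ran from 13.8 to 33.3 reads in R1810A replicate 1 and from 49.3 to 81.7 reads in WT replicate 2, and such intervals cover counting error only.

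The heavy chain constant genes downstream of δ were read far less than IGHM. IGHG1, the γ1 constant gene, had 11 and 22 reads with the WT subunit and 14 and 8 with R1810A. IGHA1, the α1 gene, had 1 and 4 reads with the WT subunit and 3 and 5 with R1810A. IGHE, the ε gene, had 0 and 1 in WT and 11 and 0 in R1810A, so that 1 library supplied nearly all of its reads. IGHG2, IGHG3, IGHG4 and IGHA2 had 0 to 2 reads in any library. The γ genes resemble each other, and 70.3% of the 30-base windows of the IGHG1 transcript also occur in other genes, most often IGHG3, IGHG2 and IGHG4, so reads at single γ genes are uncertain.

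**Figure D1:**
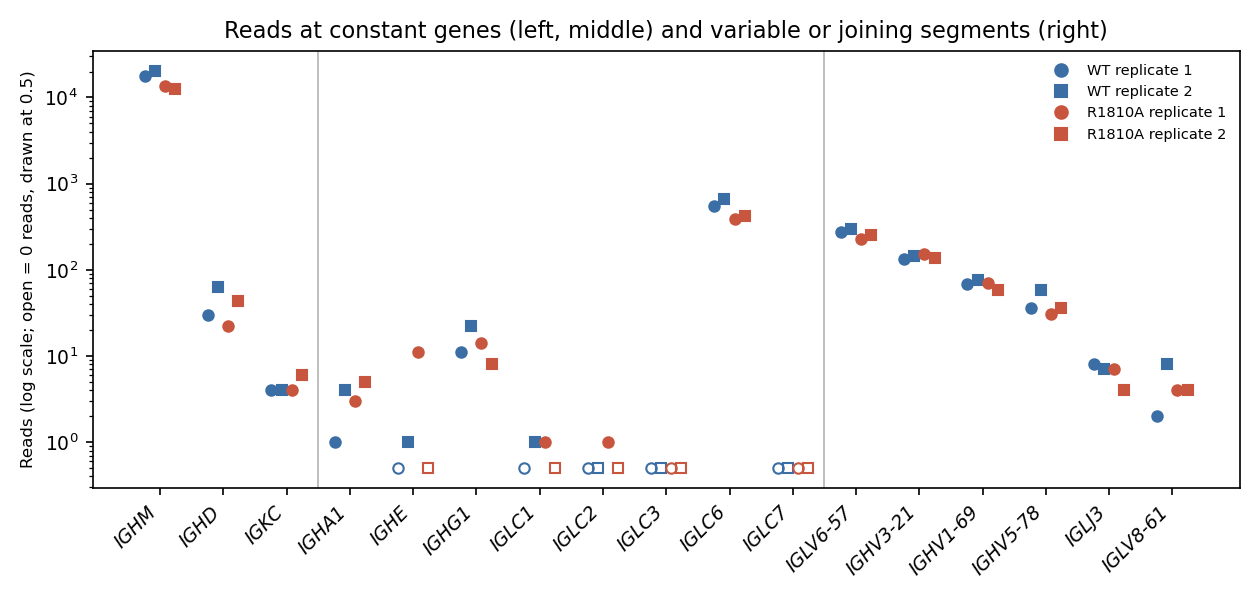
Reads per library (log axis; open symbols mark 0 reads, drawn at 0.5) at the 3 constant genes IGHM, IGHD and IGKC, at other constant genes, and at the 6 segment genes with most reads. Blue is WT and red is R1810A, circles replicate 1 and squares replicate 2; among light chain constant genes IGLC6 has 393 to 670 reads and IGKC 4 to 6.

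Reads at light chains came almost wholly from the λ locus. IGKC (ENSG00000211592, chromosome 2), the single κ constant gene, had 4 and 4 reads with the WT subunit and 4 and 6 with R1810A, an RPKM between 1.41 and 2.78. At 6 reads the exact Poisson interval ran from 2.20 to 13.1 reads, and at 4 reads from 1.09 to 10.2. None of the 494 windows of 30 bases in the IGKC transcript occurs in a transcript of another gene in GENCODE release 29. By contrast IGLC6 (chromosome 22), annotated there as a pseudogene of the λ constant cluster, had 547 and 670 reads with the WT subunit and 393 and 420 with R1810A. Its RPKM of 127 and 118 in WT and 92.9 and 96.6 in R1810A exceeded that of IGKC between 34.8-fold and 83.2-fold within a library. IGLC1 and IGLC2 had at most 1 read in any library, and IGLC3 and IGLC7 had 0 in all 4.

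The λ constant genes differ at few bases, which bears on where a read can be placed. Bases 101 to 190 of the IGLC2 transcript are shown with the aligned bases of its neighbours, and capitals mark letters that differ from IGLC2.
IGLC2: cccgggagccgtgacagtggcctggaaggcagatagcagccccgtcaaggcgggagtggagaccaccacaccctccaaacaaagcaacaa
IGLC3: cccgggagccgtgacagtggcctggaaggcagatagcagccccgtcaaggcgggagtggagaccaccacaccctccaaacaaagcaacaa
IGLC1: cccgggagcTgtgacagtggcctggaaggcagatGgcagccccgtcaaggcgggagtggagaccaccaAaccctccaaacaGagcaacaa
IGLC7: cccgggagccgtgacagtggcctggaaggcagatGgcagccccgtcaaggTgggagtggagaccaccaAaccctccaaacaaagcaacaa
IGLC6: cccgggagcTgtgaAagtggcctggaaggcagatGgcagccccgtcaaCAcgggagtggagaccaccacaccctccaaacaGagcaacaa
In this stretch IGLC3 is the same as IGLC2, and IGLC6 has 6 differences, the most of the 4 neighbours. Over the 317 bases of the constant region IGLC3 matched IGLC2 at 99.1%, and IGLC1, IGLC7 and IGLC6 at 95.3%, 95.9% and 95.8% of aligned bases. All 431 windows of 30 bases in IGLC1 occur in another gene, as do 83.4% of those in IGLC2 and 84.1% in IGLC3, against 37.5% in IGLC6 and 33.3% in IGLC7. IGLC7 thus had 0 reads although most of its windows are its own. How reads that match several places were counted is not given in the sources used here, and the deposited length of IGLC6 is 1053 bases and its GENCODE transcript has 317, so reads may also lie outside the stretch compared. The part of shared sequence in the values of single λ genes was not tested.

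With these limits, κ made up 0.726% of light chain constant reads in WT replicate 1 (4 of 551 reads, exact Clopper-Pearson interval at 95% 0.198 to 1.85%) and 0.593% in WT replicate 2 (0.162 to 1.51%). In R1810A it made up 1.00% (0.274 to 2.55%) and 1.41% (0.519 to 3.04%). The 4 intervals overlap, and the difference between the group means of 0.659 ± 0.0943% and 1.21 ± 0.287% (SD, n = 2) had an exact permutation p of 0.33, the smallest possible. It rests on 4 to 6 κ reads per library and was 0.343 percentage points without R1810A replicate 2, against 0.546 with all libraries.

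The light chain variable segments gave the same order of loci. Of 1121 reads at the 39 listed IGLV genes, 94.2% lay at IGLV6-57, whereas 55 IGKV genes had 14 reads in all. Of these 14 reads 35.7% lay at IGKV1OR2-108, and whether each IGKV gene lies within the κ locus was not tested. IGLV6-57 had 277 and 301 reads with the WT subunit and 226 and 252 with R1810A (RPKM 151 and 124 against 125 and 136, overlapping). None of its 30-base windows occurs in another gene. Genes named IGKV or IGKJ made up between 0.769% and 1.47% of reads at light chain segments in the 4 libraries. Among heavy chain variable genes IGHV3-21 led, with 135 and 145 reads with the WT subunit and 154 and 136 with R1810A, 55.1% of all IGHV reads. IGHV1-69 had 59 to 77 reads per library and IGHV5-78, a pseudogene, 31 to 59, while none of the 27 listed IGHD diversity segments had a read. A stretch of 60 bases is shown for each of the 2 leading segments, chosen as the first within the last 300 bases of the transcript in which no 30-base window is shared with another gene, from base 54 in IGLV6-57 and base 138 in IGHV3-21.
IGLV6-57: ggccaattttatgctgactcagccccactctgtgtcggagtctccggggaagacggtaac
IGHV3-21: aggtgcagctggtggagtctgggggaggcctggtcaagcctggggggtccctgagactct
The segments stood well below the constant gene: IGHM lay between 15.2-fold and 24.4-fold above IGHV3-21 in RPKM, and between 8.99-fold and 12.3-fold above IGLV6-57. For IGHV3-21, 46.9% of windows are shared with other variable genes, and for IGHV1-69, 84.1%. A read of a rearranged and mutated segment need not match the reference genome, and its part in these gaps was not tested.

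JCHAIN (ENSG00000132465, chromosome 4), whose product links IgM and IgA units into polymers, followed IGHM in level. Its reads numbered 6209 and 9069 with the WT subunit and 5204 and 4750 with R1810A. The RPKM was 902 and 999 in WT and 771 and 685 in R1810A, rank 15 among all identifiers, and the lowest IGHM library lay above the highest JCHAIN library. MZB1 (ENSG00000170476, chromosome 5), a helper of IgM folding in the endoplasmic reticulum of B cells, stood at 71.8 and 73.1 RPKM in WT and 64.3 and 62.4 RPKM in R1810A. Within a library JCHAIN lay between 11-fold and 13.7-fold above MZB1 in RPKM. This gap uses deposited lengths of 1680 bases for JCHAIN and 2273 for MZB1, whose GENCODE transcripts have 1438 and 825.

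VPREB3 (ENSG00000128218, chromosome 22), a relative of VpreB that associates with immunoglobulin chains early in their folding, had 418 and 433 reads with the WT subunit and 330 and 331 with R1810A. Its RPKM was 155 and 122 in WT and 125 and 122 in R1810A. In RPKM it lay between 1.66-fold and 2.16-fold above MZB1, with no overlap between the genes. In reads MZB1 stood above VPREB3, with 669 and 898 in WT and 587 and 586 in R1810A. The deposited length of MZB1 is 2273 bases and its GENCODE transcript has 825, against 659 and 610 for VPREB3. The part of these lengths in the order of the 2 genes was not tested. The presence of VPREB3 reads was not matched by the surrogate chain itself. IGLL1 (ENSG00000128322, chromosome 22), the λ5 gene, had 0 reads in all 4 libraries, which allows an RPKM of up to 0.448 to 0.602, taking 3 reads as the limit of a count of 0. VPREB1 had 0 to 3 reads, the recombinase genes RAG1 and RAG2 0 to 4 and 0 to 2, and the terminal transferase gene DNTT 1 to 3. From the highest deposited RPKM to the lowest the order was IGHM, JCHAIN, VPREB3, MZB1, IGHD, IGKC and IGLL1. The last neighbours with reads, IGHD and IGKC, did not overlap in RPKM between libraries, but their Poisson intervals did, with 4.30 to 7.95 for IGHD and 1.02 to 6.05 for IGKC in R1810A replicate 2.

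**Figure D2:**
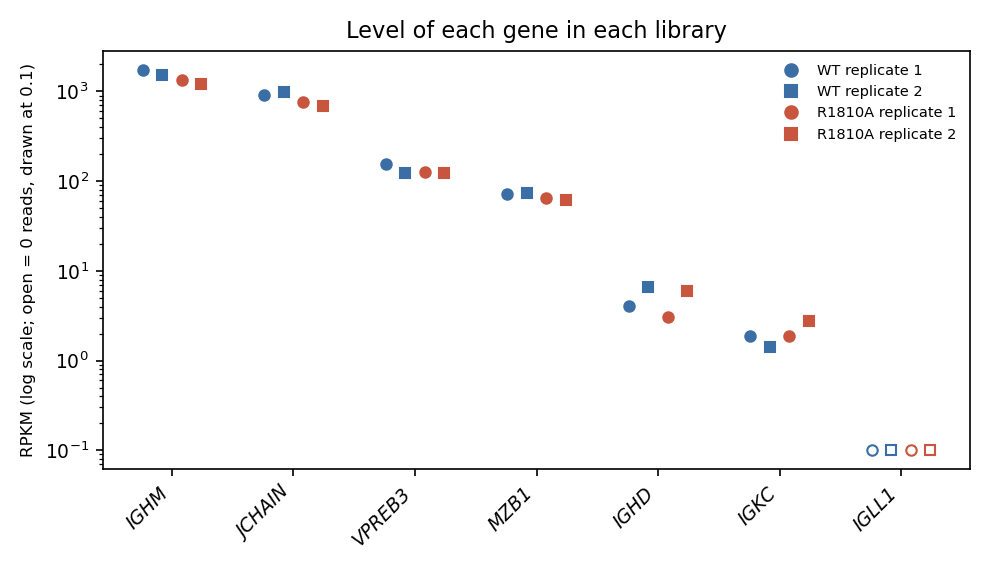
Deposited RPKM (log axis) of the 7 genes in each library, ordered by their WT mean. Blue is WT and red is R1810A, circles replicate 1 and squares replicate 2; IGLL1, with 0 reads, is drawn open at 0.1, and IGHM, at 1222 to 1745, stands highest.

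Promoter sequences set VPREB3 and IGLL1 side by side, a gene with reads in every library and a gene with none. The 250 bases before the start of each are printed from RefSeq (GRCh38.p14, minus strand), at chr22:23754426-23754675 for VPREB3 and chr22:23580291-23580540 for IGLL1. Both motifs searched are in capitals: the octamer of immunoglobulin promoters, ATGCAAAT or its reverse complement ATTTGCAT, and the E-box CAGGTG or CACCTG.
VPREB3: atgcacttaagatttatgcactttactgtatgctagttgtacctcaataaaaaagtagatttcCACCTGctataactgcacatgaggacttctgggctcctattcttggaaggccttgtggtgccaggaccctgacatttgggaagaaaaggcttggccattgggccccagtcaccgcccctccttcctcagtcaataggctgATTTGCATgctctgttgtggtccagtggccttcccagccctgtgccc
IGLL1: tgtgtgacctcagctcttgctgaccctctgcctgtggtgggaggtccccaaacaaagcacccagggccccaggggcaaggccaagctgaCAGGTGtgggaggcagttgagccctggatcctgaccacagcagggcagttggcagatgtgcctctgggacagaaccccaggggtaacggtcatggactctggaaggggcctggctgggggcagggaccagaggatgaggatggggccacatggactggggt
VPREB3 held 1 octamer, on the reverse strand, and 1 E-box, while IGLL1 held 1 E-box and no octamer. Neither the octamer nor this E-box occurs in the 250 bases before JCHAIN, and those before MZB1 hold 1 E-box. Of 35116 promoters of this length, 1.63% held the octamer and 17.5% the E-box. A match describes the letters of this window and not the binding of a factor.

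R1810A was compared with WT in one fit over all 10674 genes that passed a filter on low counts (edgeR quasi-likelihood test, Benjamini-Hochberg adjusted p). In that fit 0.356% of genes passed at an adjusted p under 0.05, 0.347% higher in R1810A and 0.00937% lower. Of the 8 genes 5 were tested, since IGKC and IGLL1 had too few reads, and 0 passed. At an unadjusted p under 0.05 there was 1, lower in R1810A, against 3.06% of all genes tested. DESeq2 and limma-voom called 0 of the 5 as well, with 2 at an unadjusted p under 0.05 in each, IGHM and JCHAIN, both lower. Over the same 10674 genes, 0.759% were lower at that level with DESeq2 and 3.01% with limma-voom. All 5 log2 fold changes lay below 0, with a median of -0.15. Of the genes tested 5400 had a log2 fold change below 0 and 5274 above. In 3 of the 5 both R1810A libraries lay below both WT libraries, a pattern that 19.5% of all genes tested showed. The opposite pattern, seen in 19.8% of all genes tested, occurred in 0 of the 5. In bulk RNA, fewer cells with a transcript and less of it per cell cannot be told apart.

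JCHAIN stood at 2721 and 3019 CPM in WT and 2496 and 2285 CPM in R1810A. Both R1810A libraries were lower than both WT libraries. The group means of 2870 ± 211 and 2390 ± 149 CPM (SD, n = 2) gave a log2 fold change of -0.26 (SE 0.12, edgeR adjusted p = 0.623), with a 95% interval from -0.53 to -0.0004. IGHM stood at 7806 and 6821 CPM in WT and 6498 and 6047 CPM in R1810A, again with the R1810A libraries lower. Its log2 fold change was -0.22 (SE 0.13, edgeR adjusted p = 0.681, 95% interval -0.51 to 0.07). Neither gene passed the threshold, and both intervals reach from a clear decrease to no change or next to none. Leaving out WT replicate 1 brought IGHM to -0.12 and JCHAIN to -0.34, and leaving out WT replicate 2 brought them to -0.32 and -0.19, so the WT library that was left out decided which of the pair lay lower.

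MZB1 differed least between libraries, at 293 and 299 CPM in WT and 282 and 282 CPM in R1810A (log2 fold change -0.07, 95% interval -0.30 to 0.16). VPREB3 stood at 183 and 144 CPM in WT, and its R1810A libraries at 158 and 159 CPM lay between them (-0.04, interval -0.33 to 0.26). IGHD stood at 13.1 and 21.3 CPM in WT and 10.6 and 21.2 CPM in R1810A, so replicate 1 was the lower library in each group. Its log2 fold change of -0.15 had an interval from -0.91 to 0.62, and became 0.27 without WT replicate 2 or without R1810A replicate 1. A change of IGHD within that interval was not detectable with these libraries. The adjusted p in the edgeR fit were 0.888, 0.961 and 0.941 for MZB1, VPREB3 and IGHD.

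**Figure D3:**
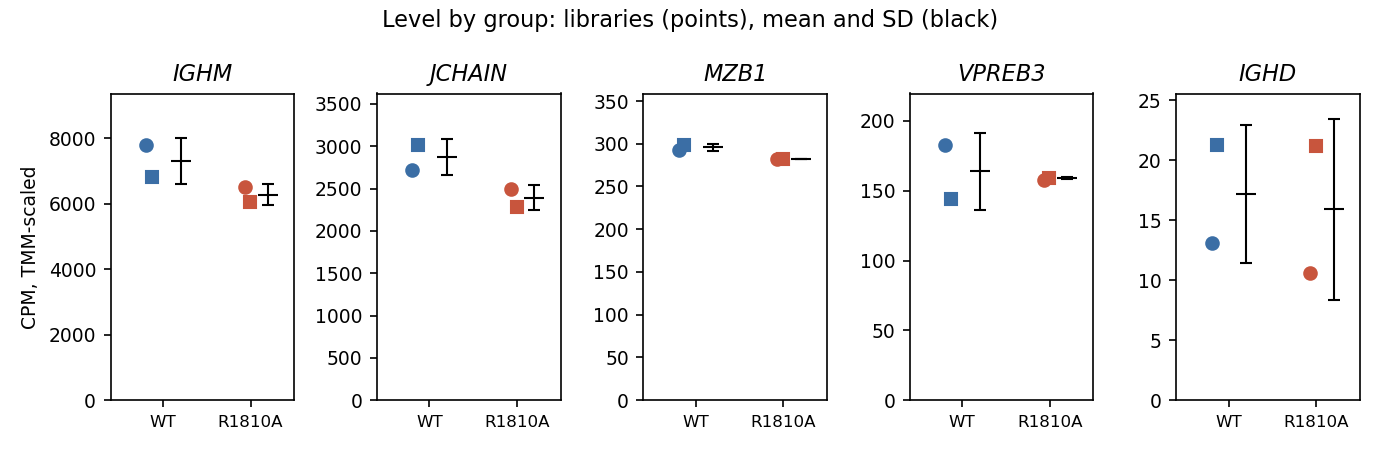
TMM-scaled CPM of the 5 tested genes, from 0 on each axis, with WT libraries in blue and R1810A libraries in red (circle replicate 1, square replicate 2) and the mean ± SD of the 2 libraries in black. For IGHM, JCHAIN and MZB1 both red points lie below both blue points, and for VPREB3 and IGHD the groups overlap.

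All immunoglobulin genes together made up 0.815% and 0.732% of gene counts in WT and 0.686% and 0.652% in R1810A. The group means were 0.773 ± 0.0590% and 0.669 ± 0.0242% (SD, n = 2). The groups did not overlap, and the difference of -0.104 percentage points had an exact permutation p of 0.33 (two-sided), the smallest possible. The difference was larger than either SD, it was -0.0625 points without WT replicate 1, and IGHM supplied most of these reads. IGLC6 had a log2 fold change of -0.24 (SE 0.11, edgeR adjusted p = 0.623), whereas IGLV6-57 stood at 0.06 (SE 0.14, adjusted p = 0.941), IGHV3-21 at 0.38 (SE 0.16, adjusted p = 0.585), IGHV1-69 at 0.17 (SE 0.21) and IGHV5-78 at -0.15 (SE 0.25). IGHG1 stood at -0.23 (SE 0.44, adjusted p = 0.923). The signs of IGLV6-57, IGHV5-78 and IGHG1 turned when single libraries were left out.

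**Figure D4:**
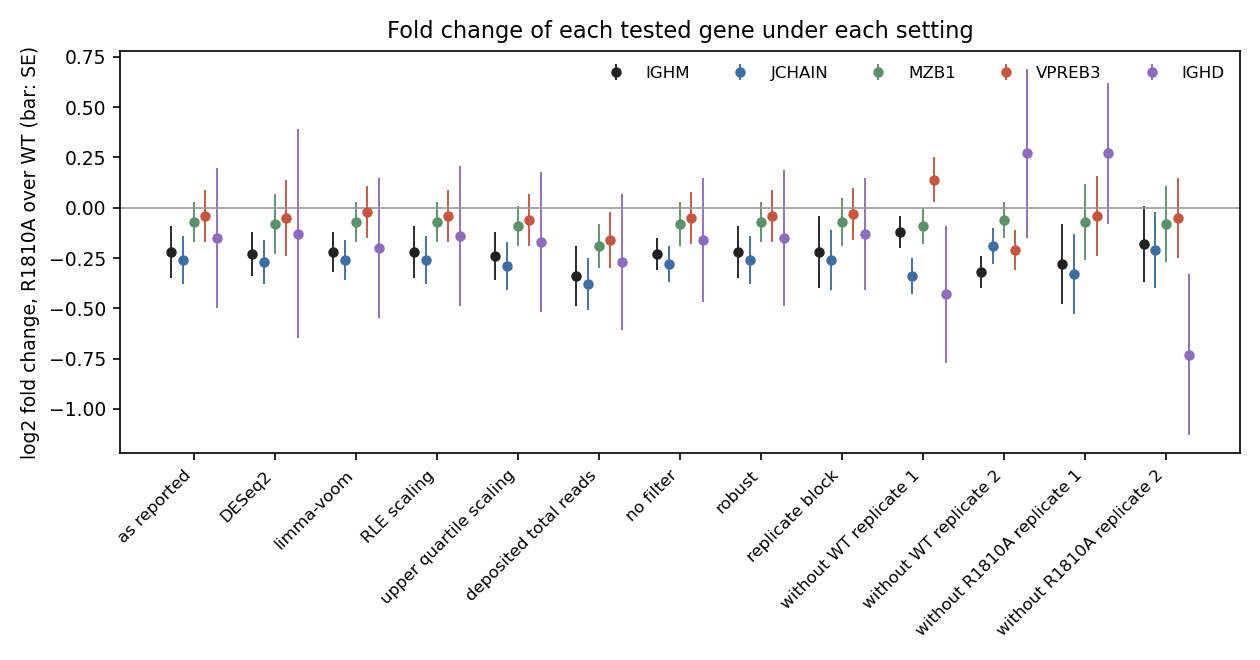
Log2 fold change (R1810A over WT, bars ± SE) of the 5 tested genes as reported and under 12 other settings. IGHM, JCHAIN and MZB1 stay below 0 in every setting drawn, VPREB3 is above 0 without WT replicate 1, and IGHD is above 0 without WT replicate 2 and without R1810A replicate 1.

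By likeness of profile, the 3 tested genes with a mean count of at least 100 whose centred log2 CPM over the 4 libraries lay nearest to IGHM were SRA1, SELENOF and NPRL2, at root mean squared distances of 0.0164, 0.0173 and 0.0178 log2 units. SELENOF, a selenoprotein of the endoplasmic reticulum, stood at 284 and 254 CPM in WT and 243 and 221 CPM in R1810A. These distances describe 4 libraries only.

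Other genes of antibody production were read from lists of names, and none of their tested members passed with edgeR, DESeq2 or limma-voom. Membrane immunoglobulin signals through CD79A and CD79B. CD79A had 662 and 566 RPKM in WT and 523 and 527 in R1810A, and IGHM lay between 2.32-fold and 2.69-fold above it within a library. In TMM-scaled CPM the groups overlapped for CD79A, at 1495 and 1281 in WT and 1267 and 1316 in R1810A. Its log2 fold change was -0.1 (SE 0.12, edgeR adjusted p = 0.852). In the list of receptor partners, 8 were tested, 0 passed or had an unadjusted p under 0.05 and the median log2 fold change was 0.07. The kinase SYK stood at 0.22 (SE 0.12) and the complement receptor CR2 at 0.30 (SE 0.18), with edgeR adjusted p of 0.654 and 0.690.

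Transcription factors that bind immunoglobulin promoters and enhancers had a median of 0.03 over 15 tested genes, none at an unadjusted p under 0.05. The smallest p belonged to POU2AF1 and SPI1. POU2AF1, the B cell coactivator of octamer-binding factors, stood at -0.22 (SE 0.12, edgeR adjusted p = 0.654), and SPI1, the ETS factor PU.1, at -0.25 (SE 0.13, adjusted p = 0.654). In both, the R1810A libraries lay below the WT libraries, a pattern that 19.5% of all genes tested showed. Of the 15 genes 4 showed it, and 5 showed the opposite pattern, against 19.8% of all genes tested. POU2AF1 had 47.0 and 51.9 RPKM in WT and 37.1 and 40.6 in R1810A.

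Of the 11 genes of the plasma cell list 6 were tested, each with a log2 fold change below 0, where 5400 of all 10674 genes tested lay. Their median was -0.29, and 0 passed. At an unadjusted p under 0.05, 2 were lower, against 3.06% of all genes tested, and 0 higher, against 4.94%. PRDM1, a repressor that drives plasma cell differentiation, had too few reads for the test and lay on the other side, with 1.31 and 2.66 CPM in WT and 4.32 and 5.29 CPM in R1810A. TNFRSF17, a receptor of plasma cells, was also untested, with 8 and 1 reads with the WT subunit and 2 and 5 with R1810A, so its groups overlapped. XBP1, the factor that expands the secretory pathway, had 59.4 and 62.9 RPKM in WT and 46.5 and 43.3 RPKM in R1810A. In TMM-scaled CPM it stood at 323 and 343 in WT and 271 and 260 in R1810A. The edgeR log2 fold change of XBP1, from scaled counts, was -0.32 (SE 0.11, adjusted p = 0.407). CD27, a receptor of activated B cells and plasma cells, had 222 and 238 RPKM in WT and 174 and 168 in R1810A. In TMM-scaled CPM it stood at 527 and 565 in WT and 443 and 440 in R1810A (edgeR log2 fold change -0.31, SE 0.10, adjusted p = 0.458). Both genes lay lower in each R1810A library than in either WT library, a pattern that 19.5% of all genes tested showed. The list holds few genes specific to plasma cells here, since SDC1 and ELL2 had 0 reads in every library.

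Folding and assembly genes of the endoplasmic reticulum had a median of 0.04 over 20 tested genes, with 14 above 0. At an unadjusted p under 0.05, 1 was higher, against 4.94% of all genes tested. It was PDIA3, a disulfide isomerase, at 0.50 (SE 0.23, edgeR adjusted p = 0.622, 95% interval 0.002 to 1.0). PDIA3 had only 41 and 55 reads with the WT subunit and 49 and 58 with R1810A. DNAJB11, a cochaperone of BiP, stood at 0.28 (SE 0.16). Factors of heavy chain RNA end choice and splicing, which set the balance of secreted and membrane forms, had a median of -0.04 over 13 genes. U2AF1 stood at 0.55 (SE 0.22, edgeR adjusted p = 0.551), on 42 and 73 reads with the WT subunit and 66 and 66 with R1810A. It was the 1 gene of that list with an unadjusted p under 0.05, where 4.94% of all genes tested were higher. HNRNPF, a factor known to affect the choice of the secretory poly(A) site, stood at 0.22 (SE 0.10, adjusted p = 0.638). The list of somatic hypermutation and class switching genes had a median of -0.08 over 14 genes, and 2 genes, both lower, had an unadjusted p under 0.05, against 3.06% of all genes tested. APEX1, a base excision repair endonuclease, was 1 of them, at 191 and 208 RPKM in WT and 150 and 155 RPKM in R1810A. In TMM-scaled CPM it stood at 532 and 583 in WT and 448 and 480 in R1810A. The edgeR log2 fold change of APEX1, from scaled counts, was -0.27 (SE 0.11, adjusted p = 0.568). The surrogate chain and recombination list (VPREB1, RAG1, RAG2, DNTT) had 0 tested genes.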

How the data were processed

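Ribosomal RNA was removed from total RNA before sequencing on an Illumina GAII, and Bowtie aligned the reads to hg19, per the labels' protocols and the submitters' processing notes. Not given in the sources used here are the counting program, the annotation release and whether strand was used. The authors deposited raw read counts per gene and RPKM, which followed from count, gene length and total reads within a relative tolerance of 0.0001. The deposited total reads and gene lengths are other numbers whose making the authors do not describe. Symbols were matched by Ensembl identifier (40763 of 51714). The 8 genes and all lists were chosen with earlier results of these data known. Counts were tested with edgeR 4.0.16 (filterByExpr, TMM, glmQLFit, glmQLFTest, group as the only term) in R 4.3.3, adjusted over 10674 genes, on simulated data first. An SE is the absolute log2 fold change over the square root of F, and intervals use its t quantile. Alternatives were DESeq2 1.42.0, limma-voom 3.58.1, other scalings, no filter, a robust fit, a replicate block and each library left out. Replicate libraries differed beyond sampling noise (chi-square per degree of freedom 4.03 in WT, 2.13 in R1810A). Listed genes were named by these rules: up to 4 genes per list past the threshold, or otherwise the 2 of smallest p, 6 segments with most reads, and constant genes with at least 10 reads. Other genes given with reads were named after their values were seen, and some genes of the lists are not reported here. Window sharing used GENCODE release 29 transcripts, on both strands.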

Additional observations from a re-analysis of the deposited data

How the results depend on the processing

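Of 60 log2 fold changes of the 5 tested genes under 12 settings, 0 passed the threshold and 3 changed sign: IGHD was 0.27 when either WT replicate 2 or R1810A replicate 1 was left out, and VPREB3 was 0.14 without WT replicate 1. With a library left out, IGHM ran from -0.32 to -0.12, JCHAIN from -0.34 to -0.19, MZB1 from -0.09 to -0.06, VPREB3 from -0.21 to 0.14 and IGHD from -0.73 to 0.27. Over all settings the smallest edgeR adjusted p was 0.0962 for JCHAIN (without WT replicate 1) and 0.320 for IGHM. Over the 23 named genes, 265 of 276 values kept their direction and their side of the threshold. The others that changed sign were IGLV6-57 (-0.07 with deposited total reads, between -0.08 and 0.19 with a library left out), IGHV5-78 (-0.29 to 0.03), IGHG1 (-0.68 to 0.13), CR2 (-0.00 to 0.55) and CSF1R (-0.06 to 0.61). Scaling by deposited total reads moved the median log2 fold change of all genes to -0.13, with IGHM at -0.34 and JCHAIN at -0.38.

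Over all genes edgeR called 37 higher and 1 lower. Counts were 24 higher with limma-voom, 78 higher and 7 lower with no filter, 73 and 4 with the replicate block, 4 lower with the robust fit, 5 lower with deposited total reads and 2 lower with DESeq2. With a library left out they ran from 2 to 113 higher and from 0 to 40 lower; the lowest was without WT replicate 2 and the highest without WT replicate 1. Genes of the lists past the threshold numbered 0 to 2 with a library left out, 2 being without WT replicate 1, of which IRF4 (log2 fold change 1.39, edgeR adjusted p = 0.0432) is 1. The cause was not tested, except that leaving out a library leaves the spread to the other group. No label states whether replicate numbers pair the samples. Deviations of same-numbered libraries correlated at -0.0401 over genes, which cannot show whether some genes share a pairing. With the replicate block IGHM was -0.22 and JCHAIN -0.26. The difference in immunoglobulin share was -0.0887 percentage points over total reads, -0.103 with IGHM, IGHD and IGKC only, and -0.146 to -0.0625 with a library left out. The log2 ratio of IGHD to IGHM differed by 0.0559 in RPKM and in read counts, and by -0.498 to 0.610 with a library left out; the κ share differed by 0.343 to 0.749 points. The κ share without IGLL5 could not be run, since that gene was not analysed here.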

Other observations

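IGHM and IGHV3-21, the heavy chain variable gene with most reads, lay on opposite sides of 0 in the comparison, at -0.22 and 0.38 on the log2 scale. Whether reads at IGHV3-21 come from the transcript that carries IGHM was not tested. The RPKM of IGHM over that of IGHV3-21 was 22.8 and 24.4 in WT and 15.2 and 15.9 in R1810A, means of 23.6 ± 1.14 and 15.6 ± 0.541 (SD, n = 2), with no overlap (exact permutation p = 0.33, the smallest possible). This ratio was formed after the values were seen, and IGHV3-21 rests on 135 to 154 reads per library.

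IGHE had 11 of its 12 reads in R1810A replicate 1. CSF1R, best known as the receptor of macrophage colony-stimulating factor, had 445 and 394 reads with the WT subunit and 508 and 324 with R1810A, while the other 3 myeloid markers looked up had at most 1 read in any library. Its log2 fold change was 0.30 (SE 0.21, edgeR adjusted p = 0.750).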
